A study of Mus musculus with 48 samples.

Results

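The oligodendrocyte lineage genes described here are 31 genes taken from a fixed list of names, matched by symbol in a table of 54838 genes, and all 31 were found. They fall into 20 genes of mature, myelinating oligodendrocytes, 3 transcription factor genes used along the whole lineage and 8 genes of oligodendrocyte precursors and newly committed cells. They were read in 48 RNA-seq libraries from the mouse nucleus accumbens, a part of the ventral striatum that serves reward, made from messenger RNA bound to ribosomes that only chosen neurons are meant to tag. D1 libraries came from mice of the genotype Drd1Cre x Rpl22HA, in which Cre follows the dopamine D1 receptor gene, and D2 libraries from A2ACre x Rpl22HA mice, in which Cre follows Adora2a, an adenosine receptor gene of the neurons that carry the D2 receptor. Cre then makes these neurons use a copy of the ribosomal protein Rpl22 with a haemagglutinin tag, by which their ribosomes are pulled down. Mice of either sex were taken on day 10 of fentanyl abstinence or belonged to groups labelled water abstinence, called water below, and the ages of the mice are not given in the labels. Cell type, sex and treatment make 8 groups with 6 libraries in each, and each library pooled 4 mice, so that errors and p-values refer to pools. Because each cell type comes from its own Cre line, the line and the cell type cannot be told apart.

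Oligodendrocytes wrap axons in myelin, a stack of membrane rich in galactolipids and in a few abundant proteins. They arise from precursor cells that persist in the adult brain, carry the growth factor receptor PDGFRA and the proteoglycan NG2, and pass through a short committed stage before they make myelin. SOX10, OLIG1 and OLIG2 act along the whole lineage, and MYRF drives the myelin genes. None of these genes is a defining gene of medium spiny neurons, and which cells their reads came from in these pull-downs was not tested.

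The libraries held between 20211543 and 42584762 reads in genes, with D2 libraries deeper (32690424 ± 3511626, SD, n = 24) than D1 libraries (27153238 ± 2712615, SD, n = 24). Levels are in CPM, read counts scaled to library size, with TMM factors, which assume that most genes do not differ between libraries. Between D1 and D2 libraries 53.4% of all genes passed the test described below in water and 54.1% in fentanyl abstinence. Differences between the cell types are thus relative to this scaling. Receptor genes matched the labels of the neurons: Drd1 ran from 395 to 603 CPM in D1 libraries and from 37.4 to 62.7 CPM in D2, and Adora2a from 23.8 to 181 CPM in D1 libraries and from 728 to 1126 CPM in D2. The 8 pan-neuronal genes summed to between 6046 and 8792 CPM in every library, so that the 31 lineage genes together, at 353 to 492 CPM in D1 and 580 to 845 CPM in D2 libraries, made a small part of each. In pull-downs such as these, the number of oligodendrocytes, the RNA of each and the share of it that enters the pull-down cannot be told apart.

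Per length of exon, Mbp stood first in both cell types. Mbp encodes myelin basic protein, which holds the inner faces of the myelin membrane together (ENSMUSG00000041607, GRCm38 chromosome 18, 82475146 to 82585637), and reached 20.4 ± 1.86 RPKM in D1 and 33.3 ± 3.54 RPKM in D2 libraries (SD, n = 24 each). It was followed in both by Cnp, a myelin enzyme of the cytoplasmic channels (11.01 ± 1.52 and 24.1 ± 2.78 RPKM), and by Car2, carbonic anhydrase 2 (10.4 ± 1.63 and 16.0 ± 2.48 RPKM). The next places differed. In D1 libraries Lhfpl3, a tetraspan membrane protein gene of precursors, came next at 8.35 ± 0.886 RPKM and after it Tspan2, a tetraspanin gene, at 4.79 ± 0.589 RPKM, within its spread of Mobp, a myelin basic protein of the compact sheath, at 4.75 ± 0.701. In D2 libraries the next place was taken by Mal, a raft protein of myelin, at 9.25 ± 1.25 RPKM, within its spread of Mobp at 8.72 ± 0.991 and Olig1 at 8.0002 ± 1.43, and Lhfpl3 came after them at 7.11 ± 0.436. The lowest places in D1 libraries were held by Neu4, Pdgfra and Cspg4 at 0.0888 ± 0.0403, 0.0875 ± 0.0276 and 0.0834 ± 0.0269 RPKM, which lay within each other's spread. As a share of the summed CPM of the 20 mature genes, the share of Mbp was 49.3 ± 1.52% in D1 libraries and 45.85 ± 1.63% in D2, and that of Cnp 11.4 ± 1.13% and 14.2 ± 0.941%.

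**Figure D1:**
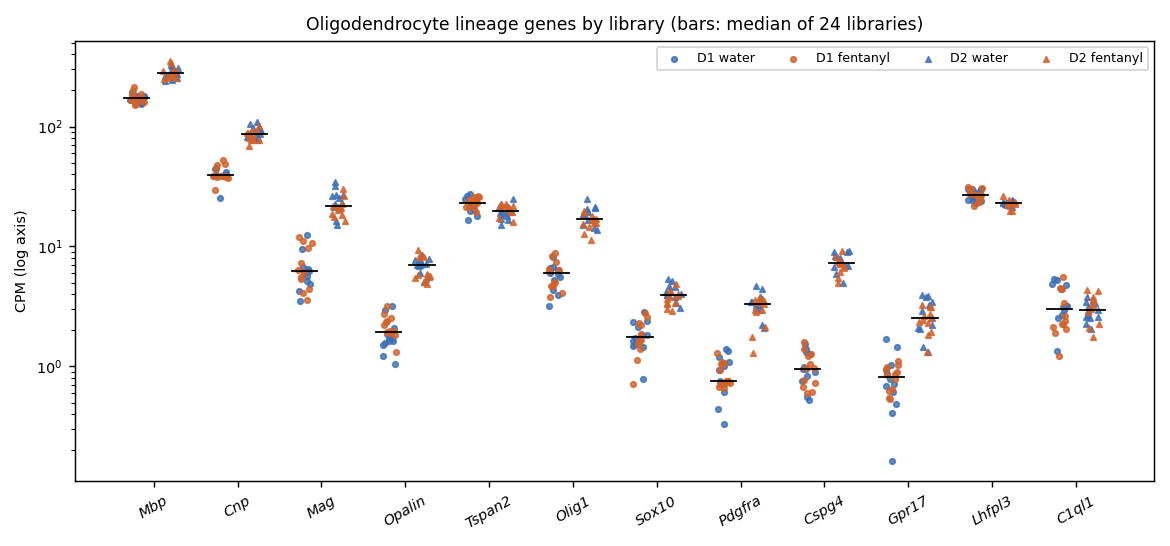
Levels of 12 of the 31 genes in every library, in CPM on a log axis, with D1 libraries as circles on the left and D2 libraries as triangles on the right of each gene, water in blue and fentanyl abstinence in orange, and bars at the median of 24 libraries. Opalin, Olig1, Pdgfra and Cspg4 sit lower in D1 libraries, while Lhfpl3, Tspan2 and C1ql1 overlap between the cell types, and water and fentanyl points lie among each other for every gene shown.

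D1 libraries held less message of the mature genes than D2 libraries in water mice. By edgeR's quasi-likelihood test with Benjamini-Hochberg adjustment over all genes, 18 of the 20 mature genes were lower in D1, 1 was higher (Tspan2) and 1 did not pass (Gal3st1), and the median log2 difference was -0.98. Among all 18270 genes tested 53.4% passed, 26.6% lower and 26.8% higher in D1, with a median of -0.01. For 11 of the 20 genes the highest D1 library lay below the lowest D2 library, against 6.11% of all genes (6.64% for the opposite order, which no lineage gene showed). In fentanyl abstinence, which shares no library with the water comparison, 17 were lower, 1 was higher and 2 did not pass (Ugt8a and Gal3st1), with a median of -0.92, against 54.1% of all genes passing, 27.2% lower and 26.9% higher. There 10 of the 20 did not overlap, against 6.03% of all genes (6.14% for the opposite order).

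The largest difference among mature genes in water was that of Opalin, an oligodendrocyte membrane glycoprotein at the paranodal loops (ENSMUSG00000050121, chromosome 19, 41061710 to 41077113). In water it ran from 1.04 to 3.16 CPM in D1 libraries (median 1.68) and from 5.08 to 8.46 CPM in D2 libraries (median 7.12), with no overlap. In fentanyl abstinence it ran from 1.31 to 3.17 CPM in D1 (median 2.09) and from 4.87 to 9.33 CPM in D2 libraries (median 5.70), again with no overlap. The log2 difference was -1.94 (SE 0.135, edgeR adjusted p = 5.51e-17, n = 12 each), a level 3.84-fold lower in D1, and in fentanyl abstinence -1.56 (SE 0.132, edgeR adjusted p = 3.68e-14). Mag, the myelin-associated glycoprotein of the membrane next to the axon (ENSMUSG00000036634, chromosome 7, 30899176 to 30914873), was at 3.48 to 12.4 CPM in D1 water libraries (median 6.15) against 15.1 to 34.6 CPM in D2 (median 24.2). Its fentanyl libraries spanned 3.55 to 12.02 CPM in D1 (median 6.23) and 16.3 to 29.996 CPM in D2 (median 20.9), so that the cell types were separate in both treatments. The differences were -1.91 (SE 0.173, edgeR adjusted p = 3.02e-13) and -1.56 (SE 0.171, edgeR adjusted p = 8.15e-11). Mog, a myelin glycoprotein of the outermost layer (ENSMUSG00000076439, chromosome 17, 37010743 to 37023398), was at 2.05 to 4.88 CPM in D1 (median 3.09) and 6.65 to 12.8 CPM in D2 water libraries (median 10.5). In fentanyl abstinence it was at 1.79 to 5.47 CPM (median 2.83) and 6.92 to 13.7 CPM (median 9.07). Mog too did not overlap in either treatment, with log2 differences of -1.72 (SE 0.137, edgeR adjusted p = 5.54e-15) and -1.62 (SE 0.137, edgeR adjusted p = 3.2e-14).

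Mbp, Mobp, Mal and Cldn11, which encode proteins of compact myelin, and Cnp, which encodes an enzyme of its cytoplasmic channels, were all lower in D1. Mbp ran from 153 to 194 CPM in D1 water libraries (median 171) and from 239 to 323 CPM in D2 (median 280), and from 150 to 212 (median 171) and 248 to 354 CPM (median 277) in fentanyl abstinence. The cell types were separate in both treatments, with log2 differences of -0.71 (SE 0.0562, edgeR adjusted p = 4.24e-15) and -0.70 (SE 0.0562, edgeR adjusted p = 5.64e-15). Mobp, at 25.5 to 40.7 CPM in D1 (median 30.9) and 46.7 to 63.9 CPM in D2 water libraries (median 56.9), differed by -0.84 in water and -0.91 in fentanyl abstinence, without overlap in either. Mal ran from 6.86 to 15.2 CPM in D1 (median 8.85) and from 19.7 to 30.8 CPM in D2 (median 26.5) and differed by -1.43 and -1.41, while Cnp, at 25.3 to 45.2 CPM (median 39.4) and 77.4 to 109 CPM (median 88.7), differed by -1.22 and -1.04. Cldn11, the claudin of the radial component of myelin, was at 1.66 to 5.57 CPM in D1 (median 2.67) and 4.24 to 9.15 CPM in D2 (median 7.98), with 1 or more D1 libraries reaching into the D2 range in water. It differed by -1.34 and -1.14. All of these passed in both treatments.

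Of the genes of myelin lipid synthesis, Gal3st1 and Ugt8a each did not pass in 1 or both treatments. Gal3st1, which adds sulfate to galactosylceramide, ran from 1.67 to 3.46 CPM in D1 (median 2.39) and from 1.67 to 4.38 CPM in D2 water libraries (median 2.89), and from 1.72 to 4.04 (median 2.63) and 1.95 to 4.08 CPM (median 2.89) in fentanyl abstinence. The ranges overlapped almost wholly, and the log2 differences of -0.23 (95% interval -0.54 to 0.09, edgeR adjusted p = 0.221) and -0.21 (-0.52 to 0.10, edgeR adjusted p = 0.263) did not pass. Ugt8a, which makes galactosylceramide, was at 1.05 to 3.07 CPM in D1 (median 1.38) and 1.88 to 4.70 CPM in D2 water libraries (median 3.52), a difference of -1.03 (SE 0.174, edgeR adjusted p = 2.08e-06). In fentanyl abstinence it was at 1.14 to 3.86 CPM (median 1.90) and 1.78 to 3.53 CPM (median 2.80), and the difference of -0.36 (95% interval -0.70 to -0.02) did not pass with edgeR (adjusted p = 0.0721), although limma voom passed it at -0.40 (adjusted p = 0.0363). Fa2h, the fatty acid hydroxylase of these lipids, differed by -0.94 and -0.98, and Aspa, which frees acetate for lipid synthesis from N-acetylaspartate, by -1.21 and -0.92, both passing in each treatment with overlapping ranges.

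Of the remaining mature genes, Car2 ran from 20.7 to 32.9 CPM in D1 (median 23.1) and from 33.0 to 51.2 CPM in D2 water libraries (median 42.3), with no overlap, and differed by -0.78 in water and by -0.46 in fentanyl abstinence, where the ranges overlapped. Myrf, the transcription factor gene of myelination, differed by -0.92 and -0.62, and Nkx6-2, a homeobox gene of the lineage, by -1.36 and -1.33. Ermn, a cytoskeletal gene of late oligodendrocytes, differed by -0.93 and -0.72, and Gjc3, a connexin gene, by -0.90 and -0.91. Trf, transferrin, differed by -1.19 and -1.02, but 63.5% of its exonic bases also lie in exons of another annotated gene, Gm20425, so that its reads are uncertain (for Nkx6-2 the share with other genes was 12.9%, and for Bcas1, described further on, 12.6%). Enpp2, autotaxin, which is also an abundant product of the choroid plexus, differed by -0.48 and -0.52. Each of these passed in both treatments. Tspan2 went the other way: it ran from 16.5 to 27.2 CPM in D1 (median 22.2) and from 15.1 to 24.9 CPM in D2 water libraries (median 19.1), and from 19.4 to 26.1 (median 23.4) and 16.0 to 22.8 CPM (median 21.1) in fentanyl abstinence. The ranges overlapped in both treatments, and Tspan2 was higher in D1 by 0.20 (SE 0.0696, edgeR adjusted p = 0.0147) and by 0.19 (SE 0.0694, edgeR adjusted p = 0.0159).

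All 3 transcription factor genes of the whole lineage were lower in D1 libraries in both treatments, against 26.6% of all genes in water and 27.2% in fentanyl abstinence. Their median log2 difference was -1.56 in water and -1.44 in fentanyl abstinence. Olig1 (ENSMUSG00000046160, chromosome 16, 91269772 to 91271933), a helix-loop-helix factor gene, ran from 3.21 to 8.10 CPM in D1 (median 5.97) and from 13.7 to 25.0 CPM in D2 water libraries (median 18.6). In fentanyl abstinence its ranges were 3.81 to 8.88 CPM (median 5.65) and 11.3 to 19.9 CPM (median 16.2). Olig1 did not overlap in either treatment and differed by -1.70 (SE 0.122, edgeR adjusted p = 1.47e-16) and -1.44 (SE 0.121, edgeR adjusted p = 2.74e-14). Olig2, its neighbour on the same chromosome and the factor that specifies the lineage, ran from 0.572 to 1.93 CPM in D1 (median 1.14) and from 1.81 to 4.95 CPM in D2 water libraries (median 3.52), overlapping narrowly, and differed by -1.56 and -1.61. Sox10, at 0.784 to 2.85 CPM in D1 (median 1.77) and 3.10 to 5.36 CPM in D2 water libraries (median 4.06), did not overlap in either treatment and differed by -1.20 and -1.04.

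Of the 8 precursor and committed genes, 6 were lower in D1 libraries in water, 1 was higher (Lhfpl3) and 1 did not pass (C1ql1), with a median log2 difference of -1.54. In fentanyl abstinence the counts were again 6, 1 and 1, with the same genes in each place and a median of -1.34. Of all genes, 26.6% were lower in D1 in water and 27.2% in fentanyl abstinence. Ranges were separate, with D1 the lower, for 3 of the 8 in water and for 6 in fentanyl abstinence, against 6.11% and 6.03% of all genes. Cspg4, which encodes NG2 (ENSMUSG00000032911, chromosome 9, 56865033 to 56899870), had the largest difference of all 31 genes in both treatments. It ran from 0.527 to 1.55 CPM in D1 (median 0.950) and from 4.94 to 9.13 CPM in D2 water libraries (median 7.76), and from 0.602 to 1.60 (median 0.970) and 4.95 to 9.24 CPM (median 7.24) in fentanyl abstinence. Every D1 library lay below every D2 library. The differences were -2.92 (SE 0.146, edgeR adjusted p = 3.53e-22) and -2.83 (SE 0.145, edgeR adjusted p = 9.2e-22), a level 7.56-fold and 7.09-fold lower in D1. NG2 is also a known protein of pericytes, the cells around capillaries, whose genes are set beside it further on.

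Pdgfra, the growth factor receptor gene of precursors, which fibroblasts also use (ENSMUSG00000029231, chromosome 5, 75152292 to 75198215), ran from 0.333 to 1.39 CPM in D1 (median 0.848) and from 2.11 to 4.70 CPM in D2 water libraries (median 3.33). In fentanyl abstinence it ran from 0.666 to 1.29 CPM (median 0.757) and from 1.302 to 3.81 CPM (median 3.13), and the cell types stayed separate, though by little. The differences were -1.93 (SE 0.174, edgeR adjusted p = 2.63e-13) and -1.75 (SE 0.173, edgeR adjusted p = 4.78e-12). Neu4, a sialidase gene of precursors, was at 0.163 to 0.761 CPM in D1 (median 0.438) and 0.717 to 2.18 CPM in D2 water libraries (median 1.45), and at 0.110 to 0.766 (median 0.365) and 1.006 to 2.25 CPM (median 1.28) in fentanyl abstinence. Its ranges overlapped narrowly in water and were separate in fentanyl abstinence, and it differed by -1.68 (SE 0.219, edgeR adjusted p = 7.18e-09) and -1.90 (SE 0.222, edgeR adjusted p = 5.12e-10). The genes of the committed stage followed the same direction. Gpr17, a receptor gene that marks cells between precursor and myelinating stage (ENSMUSG00000052229, chromosome 18, 31942997 to 31949636), was at 0.162 to 1.70 CPM in D1 (median 0.752) and 1.32 to 3.98 CPM in D2 water libraries (median 2.73), and at 0.534 to 1.11 (median 0.857) and 1.33 to 3.24 CPM (median 2.48) in fentanyl abstinence. It differed by -1.71 (SE 0.211, edgeR adjusted p = 2.01e-09) and -1.58 (SE 0.21, edgeR adjusted p = 1.21e-08), overlapping in water and separate in fentanyl abstinence. Enpp6, a choline phosphodiesterase gene of newly formed oligodendrocytes, differed by -1.40 and -1.01, and Bcas1, a gene of early myelinating cells, by -0.91 and -1.09.

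The remaining precursor genes did not share this direction. Lhfpl3 (ENSMUSG00000106379, chromosome 5, 22746059 to 23275597) ran from 23.0 to 30.3 CPM in D1 (median 27.4) and from 21.3 to 24.6 CPM in D2 water libraries (median 22.9), and from 21.6 to 31.6 (median 26.7) and 19.6 to 26.2 CPM (median 23.0) in fentanyl abstinence. The ranges overlapped, with D1 libraries on the higher side, and the differences of 0.24 (SE 0.0519, edgeR adjusted p = 0.000137) and 0.23 (SE 0.0518, edgeR adjusted p = 0.000233) passed. A gene on the other strand covers part of its exons (17.6% of its exonic bases in all are shared with other genes), and libraries of this kit keep no strand. C1ql1, a secreted protein gene that precursors share with some neurons, ran from 1.35 to 5.39 CPM in D1 (median 3.19) and from 2.04 to 3.82 CPM in D2 water libraries (median 2.79), and from 1.22 to 5.60 (median 2.32) and 1.75 to 4.36 CPM (median 3.29) in fentanyl abstinence. The D1 range held the D2 range in both treatments. Its differences of 0.35 (95% interval -0.01 to 0.72, edgeR adjusted p = 0.096) and -0.17 (-0.54 to 0.19, edgeR adjusted p = 0.433) had opposite signs and did not pass.

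**Figure D2:**
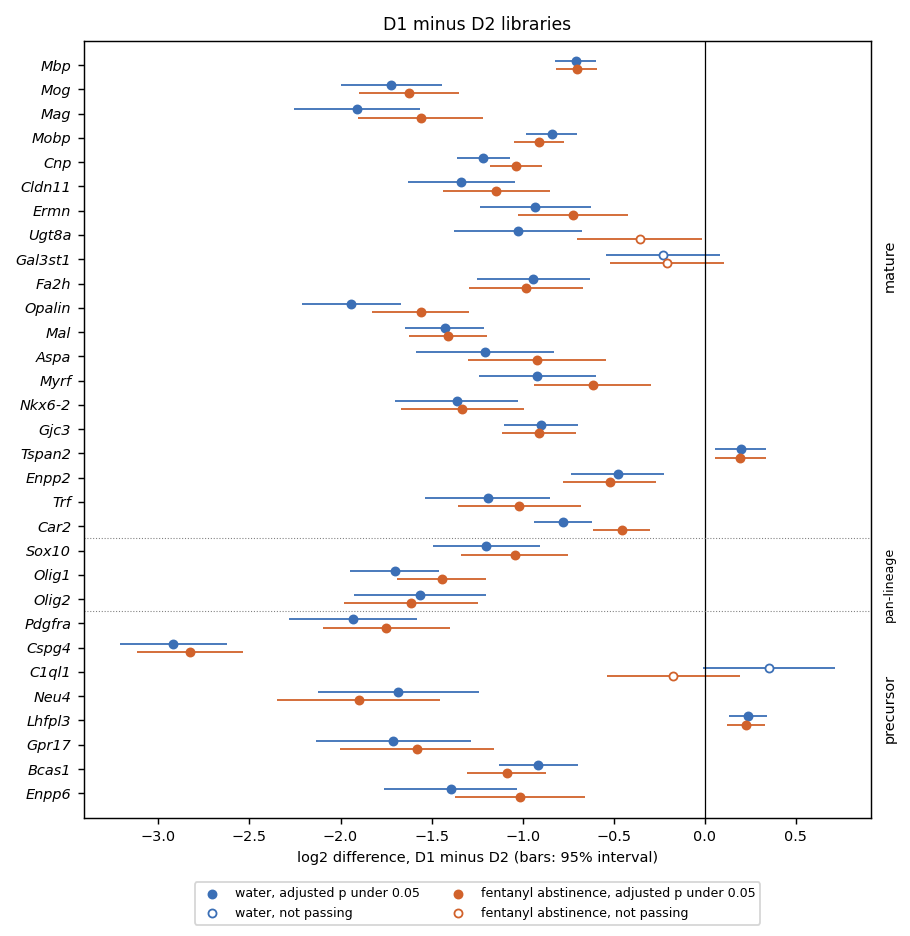
Log2 differences between D1 and D2 libraries for all 31 genes, with 95% intervals, in water (blue) and fentanyl abstinence (orange), filled where the edgeR adjusted p was under 0.05. Nearly all points lie left of 0, with Cspg4 farthest left at -2.92 and -2.83, while Tspan2 and Lhfpl3 lie right of it and Gal3st1 and C1ql1 do not pass.

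Over all 31 genes, 27 were lower in D1 water libraries, 2 higher and 2 not passing, with a median log2 difference of -1.20, and 26, 2 and 3 in fentanyl abstinence, with a median of -1.02. Of all 18270 genes, 26.6% were lower in D1 in water and 27.2% in fentanyl abstinence. Separate ranges, with D1 the lower, were found for 16 and 19 of the 31 genes, against 6.11% and 6.03% of all genes. The correlation of log2 RPKM in D2 libraries with the water difference was 0.288 across all 31 genes and -0.00321 across the 20 mature genes (Pearson's r, a description across genes that share the same libraries). The unequal differences given above can also be written as ratios within libraries, here for pairs of genes chosen after their values were seen. These ratios restate those differences and are no separate evidence for them. The log2 ratio of Mag to Mbp, both in CPM, averaged -4.80 in D1 and -3.56 in D2 water libraries, and -4.69 and -3.75 in fentanyl abstinence. For Opalin to Mbp the ratio averaged -6.55 (range -7.16 to -5.78) in D1 and -5.32 (range -5.54 to -4.95) in D2 water libraries, ranges that do not overlap. Cspg4 to Pdgfra averaged 0.20 in D1 and 1.17 in D2 water libraries, and 0.14 and 1.28 in fentanyl abstinence, so that Cspg4 differed by more than Pdgfra on average. The ranges of this ratio overlapped in both treatments. In water the D1 range of -0.97 to 1.88 held the D2 range of 0.80 to 1.52, and both genes rest on few reads in D1 libraries.

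For 2 mature and 2 precursor genes the stretches in front of their start sites are shown. These genes had the largest water difference in their set among those whose stretch is in the table used and overlaps no annotated exon. Gpr17 was left out. Whether these stretches have a part in the differences between the cell types was not tested. They are the 250 bases before the most upstream start site, from RefSeq on GRCm38.p6, read 5′ to 3′ on the strand of the gene: Opalin at chr19:41077114-41077363 on the minus strand, Mag at chr7:30914923-30915172 on the minus strand, Pdgfra at chr5:75152001-75152250 on the plus strand and Enpp6 at chr8:46986637-46986886 on the plus strand. The 20 bases after the start site occurred in a GENCODE transcript of the gene for Opalin and Enpp6, but not for Mag and Pdgfra. The RefSeq start sites of Mag and Pdgfra lie outside the gene bounds given above, so that their windows are less certain. Capitals mark every match, on either strand, to ACAAAG or ACAATG, 2 forms of the core bound by SOX factors such as SOX10, or to CAGCTG, an E-box core of helix-loop-helix factors such as OLIG2.
Opalin: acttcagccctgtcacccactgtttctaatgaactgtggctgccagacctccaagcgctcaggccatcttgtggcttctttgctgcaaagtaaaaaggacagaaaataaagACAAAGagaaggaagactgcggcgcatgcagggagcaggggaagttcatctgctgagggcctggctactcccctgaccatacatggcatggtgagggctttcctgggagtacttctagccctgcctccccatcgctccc
Mag: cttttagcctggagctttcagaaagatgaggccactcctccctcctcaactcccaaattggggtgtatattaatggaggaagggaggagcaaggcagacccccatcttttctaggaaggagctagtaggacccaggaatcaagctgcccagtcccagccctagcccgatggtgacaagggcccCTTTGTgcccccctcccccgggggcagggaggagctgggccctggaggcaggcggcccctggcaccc
Pdgfra: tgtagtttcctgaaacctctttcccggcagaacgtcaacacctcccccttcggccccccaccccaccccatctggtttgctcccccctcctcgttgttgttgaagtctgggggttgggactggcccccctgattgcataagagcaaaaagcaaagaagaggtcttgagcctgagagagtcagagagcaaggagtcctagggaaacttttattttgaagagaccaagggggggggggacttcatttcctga
Enpp6: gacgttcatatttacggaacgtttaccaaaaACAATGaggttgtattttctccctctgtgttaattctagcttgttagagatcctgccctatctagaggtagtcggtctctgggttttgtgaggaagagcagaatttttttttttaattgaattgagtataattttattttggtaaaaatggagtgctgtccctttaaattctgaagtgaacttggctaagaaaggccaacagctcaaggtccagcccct
The windows of Opalin and Mag each held 1 match to the first motif, in Mag on the opposite strand, that of Enpp6 held 1 match to ACAATG, and that of Pdgfra held none. The table had an entry for 20 of the 31 genes. Of these, 4 (20%) held ACAAAG, namely Cnp, Mag, Mobp and Opalin, against 16.47% of 27025 promoters of the same length. ACAATG was found in 4 (20%), namely Enpp6, Ermn, Gal3st1 and Olig2, against 10.89%, and CAGCTG in Aspa and Lhfpl3 (10%), against 12.74%. A stretch of 6 bases can match only 1 of the 3 motifs, and a match in these windows is a description of the sequence, not of binding.

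Further genes of the lineage, and of the other cells around the neurons, were read for comparison. Of 23 other mature oligodendrocyte genes 22 were tested, and 17 were lower in D1 water libraries and none higher, with a median of -0.94, near that of the 20 mature members. Of 15 other precursor genes 8 were lower and 4 higher, with a median of -0.42. Among all genes, 26.6% were lower and 26.8% higher in D1 water libraries. The genes of cells outside the lineage were also lower in D1. In water, 11 of 12 astrocyte genes were lower (median log2 difference -2.20), all 8 pericyte genes (-4.94), all 8 endothelial genes (-3.66), all 6 fibroblast genes (-2.94) and 8 of the 9 microglial genes tested (-1.37), while 6 of 8 pan-neuronal genes were higher (0.34). Of 5 choroid plexus genes 3 were tested, and none passed (median 0.01). The pericyte genes summed to 5.26 to 10.2 CPM in D1 and 130 to 339 CPM in D2 libraries, the endothelial genes to 11.3 to 27.3 and 176 to 288 CPM, the astrocyte genes to 264 to 535 and 512 to 1011 CPM, the fibroblast genes to 1.42 to 3.47 and 5.77 to 31.2 CPM, and the microglial genes to 16.3 to 28.4 and 24.1 to 67.5 CPM. The 20 mature lineage genes summed to 306 to 441 CPM in D1 and 516 to 757 CPM in D2 libraries, the transcription factor genes to 5.64 to 12.4 and 17.4 to 33.3 CPM, and the precursor genes to 33.3 to 47.5 and 44.7 to 59.9 CPM. Lhfpl3 alone gave 21.6 to 31.6 CPM of the precursor sum in D1 and 19.6 to 26.2 CPM in D2 libraries. Slc1a2 alone gave 177 to 437 and 177 to 390 CPM of the astrocyte sum. Both sums thus do not show the differences of most genes in their lists. In 1 or more D1 libraries 3 of the 8 pericyte genes were at 0 (Kcnj8, Abcc9 and Anpep), 1 of the 8 endothelial genes (Cdh5), 4 of the 6 fibroblast genes (Col1a1, Col3a1, Lum and Slc6a13), 1 of the 10 microglial genes (Trem2) and none of the 12 astrocyte genes. In D2 libraries Trem2 alone of these 44 genes was at 0 in any library. Vtn, Pdgfrb, Gfap, Gja1 and Cldn5 were above 0 in every library. The part of these cells in the result on the lineage genes was not tested.

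**Figure D3:**
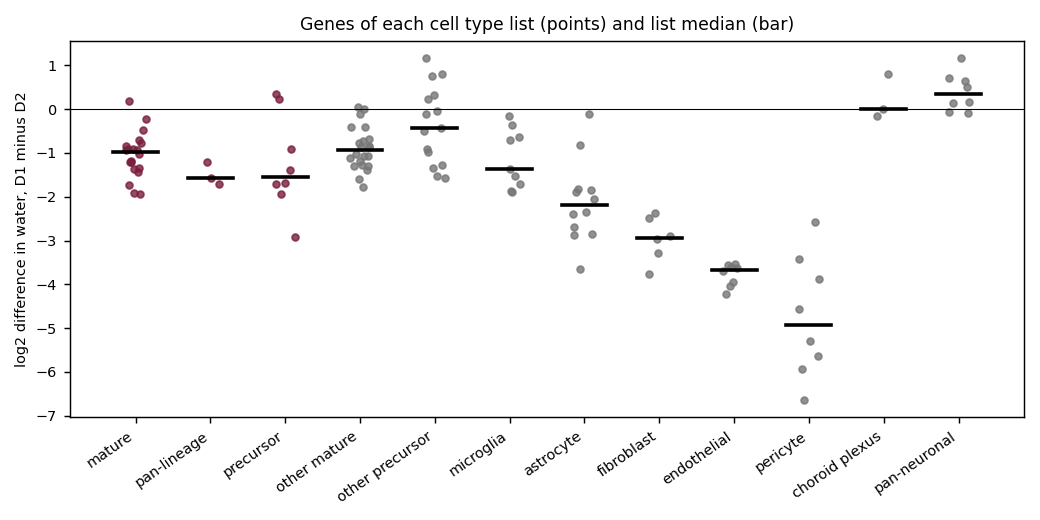
Log2 differences between D1 and D2 water libraries for the genes of each list (points) and the list median (bar), with the 3 groups of lineage genes in dark red and other lists in grey. The medians run from -4.94 for pericyte genes to 0.34 for pan-neuronal genes, and those of the mature, transcription factor and precursor genes lie between at -0.98, -1.56 and -1.54.

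Since Cspg4 is used by pericytes as well as precursors, its level was set against Vtn, a pericyte gene that makes vitronectin, and against Pdgfra across the libraries of each cell type. These were 4 of 12 relations tested, and p-values are from permutation tests with Benjamini-Hochberg adjustment over the 12. Cspg4 rose with Vtn in D1 libraries (Pearson's r = 0.563, adjusted p = 0.0176, Spearman's rho = 0.572, adjusted p = 0.0253, n = 24) and in D2 libraries (r = 0.613, adjusted p = 0.0176, rho = 0.577, adjusted p = 0.0253, n = 24). In D1 libraries both genes lay low, Cspg4 at 0.527 to 1.60 CPM and Vtn at 0.577 to 2.03 CPM, so that the relation there rests on few reads. No other pericyte gene was set against Cspg4. Without the 2 libraries farthest from the median of Cspg4, r with Vtn was 0.475 in D1 and 0.527 in D2 libraries. On deviations from the means of the 4 groups of sex and treatment, r was 0.511 (adjusted p = 0.0865) and 0.610 (adjusted p = 0.051), which did not pass. Cspg4 and Pdgfra, both precursor genes, gave r = -0.211 in D1 (adjusted p = 0.571, rho = -0.277, adjusted p = 0.455) and 0.430 in D2 libraries (adjusted p = 0.108, rho = 0.370, adjusted p = 0.233).

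**Figure D4:**
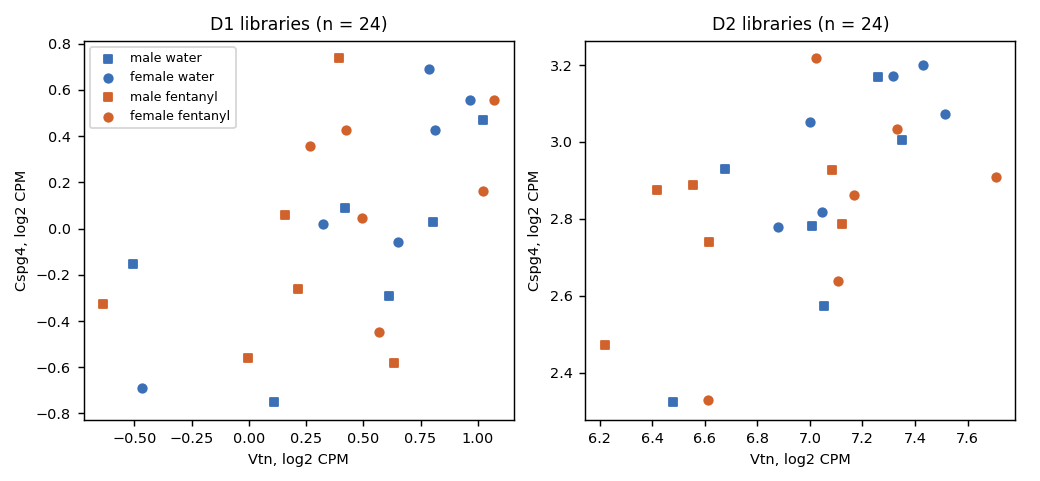
Cspg4 against Vtn across the 24 D1 libraries (left) and the 24 D2 libraries (right), in log2 CPM, water in blue, fentanyl abstinence in orange, males as squares and females as circles. The points rise together in both panels, with r = 0.563 and 0.613, and the 4 groups lie among each other.

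Within the mature genes, Mobp and Cnp rose together in D1 libraries by Pearson's r (0.545, adjusted p = 0.0176, n = 24) but not by Spearman's rho (0.449, adjusted p = 0.115). Without the 2 libraries farthest from the median of Mobp, r was 0.486, and on deviations from group means it was 0.466 (adjusted p = 0.0667), which did not pass. In D2 libraries r was 0.0045 (adjusted p = 0.983, rho = -0.173, adjusted p = 0.717). Mobp against Pdgfra, the mature against the precursor side, gave r = 0.0853 in D1 (adjusted p = 0.895, rho = 0.0191, adjusted p = 0.931) and -0.130 in D2 libraries (adjusted p = 0.813, rho = -0.0617, adjusted p = 0.931). Mobp against Gja1, an astrocyte connexin gene, gave r = 0.211 (adjusted p = 0.571, rho = 0.197, adjusted p = 0.713) and 0.0700 (adjusted p = 0.895, rho = -0.0426, adjusted p = 0.931). Pdgfra against C1ql1 gave r = 0.00499 (adjusted p = 0.983, rho = 0.0357, adjusted p = 0.931) and 0.208 (adjusted p = 0.571, rho = 0.0374, adjusted p = 0.931). None of these passed. Within groups, the median of the lineage genes' SDs of log2 CPM was 0.44 in D1 and 0.29 in D2 libraries, against 0.25 and 0.19 over all 18270 genes. The SD lay below that of the median gene for 6 of the 31 in each cell type, Mbp, Mobp and Cnp among them, and genes were not matched for level. The most even were Mbp in D1 (0.13) and Lhfpl3 in D2 libraries (0.09), and the most variable was Gpr17 in both (0.62 and 0.43).

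Fentanyl abstinence changed none of the 31 genes by edgeR at an adjusted p under 0.05, in either cell type. In D1 libraries 16 of the 20 mature genes lay above water and 4 below, with a median log2 difference of 0.05, and 1 of the 8 precursor genes lay above and 7 below, with a median of -0.01. Without D1 male fentanyl replicate 1, the highest of its group for 15 of the mature genes, 11 of the 20 lay below water and the median was -0.03. None of the 31 reached an unadjusted p under 0.05, DESeq2 and limma voom also called none, and the smallest adjusted p was 1. In D2 libraries 16 of the 20 mature genes lay below water and 4 above (median -0.11), all 3 transcription factor genes below (median -0.21) and 6 of the 8 precursor genes below (median -0.08). There 5 of the 31 genes reached an unadjusted p under 0.05, DESeq2 and limma voom called none, and the smallest adjusted p was 0.998. Among all genes edgeR called 0% in both cell types, with 639 of 16782 genes at an unadjusted p under 0.05 in D1 and 783 of 17706 in D2 libraries and a median of 0.00 in each, and DESeq2 called 3 genes in D1 and none in D2. The median 95% interval of a mature gene reached 0.318 to either side in D1 and 0.223 in D2 libraries on the log2 scale. Over all 31 genes the intervals ran from -0.83 to 0.76 in D1 libraries and from -0.73 to 0.43 in D2. Each interval covers 1 gene at 95% without adjustment for the number of genes, so that larger changes of single genes remain possible. Within a sex the intervals were wider, from -1.33 to 0.75 in D1 males, -1.23 to 1.28 in D1 females, -0.96 to 0.64 in D2 males and -0.84 to 0.49 in D2 females.

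In D2 libraries the smallest p-values among mature genes were those of Car2 and Mobp, which lay in opposite directions. Car2 ran from 33.0 to 46.2 CPM in male water (median 42.3), from 28.9 to 42.4 CPM in male fentanyl (median 35.5), from 34.7 to 51.2 CPM in female water (median 42.8) and from 31.9 to 39.0 CPM in female fentanyl libraries (median 37.4). The fentanyl libraries tended lower in both sexes and overlapped with water, and the log2 difference was -0.24 (SE 0.073, unadjusted p = 0.00273, edgeR adjusted p = 0.998). Mobp ran from 57.02 to 63.9 CPM in male water (median 59.0), from 53.8 to 76.6 CPM in male fentanyl (median 62.2), from 46.7 to 56.7 CPM in female water (median 55.8) and from 52.1 to 71.2 CPM in female fentanyl libraries (median 62.6). The medians were higher with fentanyl in both sexes, with overlap, and the difference was 0.16 (SE 0.0526, unadjusted p = 0.00483, edgeR adjusted p = 0.998). The other 3 genes under 0.05 unadjusted were Aspa at -0.40, Ugt8a at -0.30 and Olig1 at -0.21. Among precursor genes the smallest p-values belonged to Pdgfra at -0.19 (SE 0.154, unadjusted p = 0.22) and Bcas1 at 0.10 (SE 0.0883, unadjusted p = 0.268). When each of the 24 D2 libraries was left out in turn, Car2 stayed between -0.27 and -0.21 and Mobp between 0.13 and 0.19, with no adjusted p below 0.703 and 0.751.

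In D1 libraries the smallest p-values among mature genes were those of Ugt8a and Opalin, and neither passed. Ugt8a ran from 1.22 to 3.07 CPM in male water (median 2.22), from 1.20 to 3.86 CPM in male fentanyl (median 1.90), from 1.05 to 1.69 CPM in female water (median 1.18) and from 1.14 to 2.99 CPM in female fentanyl libraries (median 2.15), with overlap in both sexes. Its difference was 0.36 (SE 0.192, unadjusted p = 0.0687, edgeR adjusted p = 1) and that of Opalin 0.27 (SE 0.155, unadjusted p = 0.0912, edgeR adjusted p = 1). Among precursor genes they were C1ql1 at -0.37 (SE 0.209, unadjusted p = 0.0905) and Enpp6 at 0.23 (SE 0.192, unadjusted p = 0.238). The genes of other cells did not pass either: in D2 libraries all 12 astrocyte genes lay below water, with a median of -0.22, and in D1 libraries 8 of 12, with a median of -0.10, while edgeR called none of them. With the mean level of astrocyte, pericyte, endothelial and microglial genes as a covariate, again none of the 31 lineage genes passed in either cell type. As none had passed without the covariate, this fit cannot show what part other cells had.

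**Figure D5:**
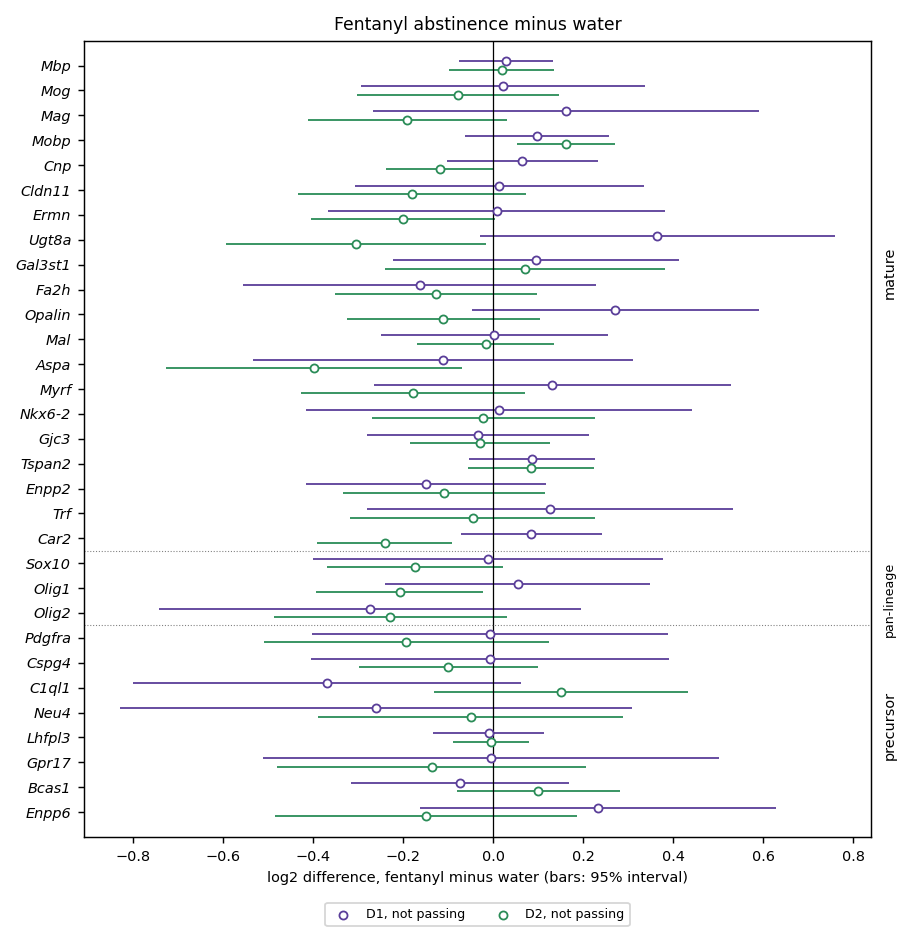
Log2 differences between fentanyl abstinence and water for all 31 genes, with 95% intervals, in D1 libraries (purple) and D2 libraries (green), all open because none reached an edgeR adjusted p under 0.05. The points lie around 0, from -0.37 to 0.36 in D1 and from -0.40 to 0.16 in D2, with the D2 points of 25 of the 31 genes left of 0.

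The difference of the fentanyl response between the cell types was tested in 1 fit over all 48 libraries. None of the 31 genes passed by edgeR (4 at an unadjusted p under 0.05, smallest adjusted p 1, none by DESeq2 or limma voom), and among all 18270 genes edgeR called 0%, with 825 genes at an unadjusted p under 0.05, while DESeq2 called 6. Ugt8a had a response 0.67 higher in D1 than in D2 (SE 0.243, unadjusted p = 0.00852), Car2 0.32 (SE 0.11, unadjusted p = 0.00535) and Opalin 0.38 (SE 0.187, unadjusted p = 0.047). C1ql1 had a response lower in D1, at -0.53 (SE 0.255, unadjusted p = 0.045). The next precursor gene by p was Enpp6 at 0.38 (SE 0.254, unadjusted p = 0.141). These results use the same libraries as the fentanyl comparisons above.

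Within each sex, edgeR called none of the 31 genes with fentanyl, nor 1 of all genes tested (0%), in either cell type, and DESeq2 and limma voom called none of the 31. In D1 males 14 of the 20 mature genes lay below water (median -0.06, none under 0.05 unadjusted) and in D1 females 17 above (median 0.16, 2 under 0.05 unadjusted). Over all 16782 genes, 464 were under 0.05 unadjusted in D1 males and 964 in D1 females. The lowest p-values in D1 females were those of Car2 at 0.31 (SE 0.108, unadjusted p = 0.0077, edgeR adjusted p = 0.807) and Ugt8a at 0.72 (SE 0.276, unadjusted p = 0.0154, edgeR adjusted p = 0.807). In D2 males 10 mature genes lay to either side (median 0.00, 2 under 0.05 unadjusted), with Aspa at -0.49 and Car2 at -0.22. In D2 females 17 lay below (median -0.22, 5 under 0.05 unadjusted), with Mobp at 0.23 (SE 0.0745, unadjusted p = 0.00419, edgeR adjusted p = 0.863) and Cnp at -0.22 (SE 0.0824, unadjusted p = 0.0122, edgeR adjusted p = 0.956). Over all 17706 genes, 1234 were under 0.05 unadjusted in D2 males and 838 in D2 females. Among precursor genes within a sex none reached an unadjusted p under 0.05.

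Females and males did not differ in their fentanyl response for any of the 31 genes by edgeR. The smallest adjusted p was 0.993 in D1 (Car2, 0.45 higher in females, unadjusted p = 0.00614) and 0.631 in D2 libraries (Mag, -0.41, unadjusted p = 0.0717), against 0% of all genes called in each. Between the sexes over both treatments none of the 31 passed either, while edgeR called 0.0536% of all genes in D1 libraries (0.0358% lower and 0.0179% higher in females) and 0.373% in D2 (0.136% lower and 0.237% higher). In D1 libraries Tspan2 and C1ql1 had unadjusted p-values under 0.05, at -0.15 (SE 0.068) and -0.45 (SE 0.209) in females against males, with edgeR adjusted p-values of 0.632 and 0.644. In D2 libraries none was under 0.05 unadjusted, and the smallest was that of Mal at -0.13 (SE 0.074, unadjusted p = 0.0958, edgeR adjusted p = 0.454).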

How the data were processed

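RNA from ribosomes pulled down through tagged Rpl22 was sequenced from nucleus accumbens pools of 4 mice in 48 libraries, made with the Smart-Seq v4 kit per the labels' protocols, which marks neither strand nor single molecules. The submitters' processing notes name TopHat2 2.0.8, HTSeq and the build GRCm38. For HTSeq, neither its version nor the strand setting nor the annotation is given in the sources used here. The deposited values are counts of reads over exons for 54838 Ensembl genes, not normalized, with 5 summary lines per library that the authors' counter wrote. Those lines held 22.9 ± 3.77% of reads (SD, n = 48) and were left out. They include reads outside exons (13.1% in D1, 7.97% in D2 libraries) and reads shared by overlapping genes, which lower the counts of overlapped genes.

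Symbols, lengths and coordinates came from GENCODE M21 (54723 identifiers with a symbol). CPM used the TMM factors of all 48 libraries, and RPKM divided CPM by the merged exon length. Tests used edgeR 4.0.16 in R 4.3.3 (TMM, filterByExpr with a count minimum of 10 and a total minimum of 15, quasi-likelihood test, two-sided, Benjamini-Hochberg adjustment over all genes at 0.05). All 31 members passed the filter, which kept 16782 genes of D1, 17706 of D2 and 18270 of both together. Log2 CPM used a prior count of 2, and correlations 100000 permutations. The scripts were tested on simulated data.

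Groups followed the labels. The genes, lists, comparisons and alternatives were chosen with earlier results of these data known. Named in D1 against D2 are the 3 genes with the largest difference in each set and those not passing or going against their set, and for fentanyl those passing, or otherwise the 2 with the smallest p in each set. Same-numbered libraries were not paired: over 24 pairs of a fentanyl and a water library of the same cell type and sex, the correlation of deviations ran from -0.0992 to 0.161. Same-numbered D1 and D2 libraries, or male and female libraries, were not compared. Among 120 pairs of replicates no copies were found. Alternatives were RLE scaling, no filter, DESeq2 1.42.0, limma 3.58.1 voom with quality weights, a replicate block, other sets of libraries in the fit, a covariate of other cells' genes, leaving out single libraries, and for correlations group-centred values, RLE scaling and a prior count of 0.5.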

Additional observations from a re-analysis of the deposited data

Results flagged for a closer look

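In 19 of 248 sets of 6 libraries (31 genes in 8 groups), 1 library stood apart from the other 5 by Dixon's test, where chance gives about 1 in 20. Values are in CPM, with the other libraries of the group in brackets. D1 male fentanyl replicate 1 was the highest of its 6 libraries for 15 of the 20 mature genes, which summed there to 441 CPM (306 to 358 CPM in the other 5), and 5 of them stood apart by the test: Mog at 5.47 (1.79 to 3.03), Cnp at 48.001 (37.7 to 39.0), Ugt8a at 3.86 (1.20 to 2.10), Mal at 15.4 (7.41 to 8.94) and Trf at 2.19 (0.730 to 0.940). D1 male water replicate 5 was high for Mog at 4.88 (2.75 to 3.45) and Mag at 12.4 (4.23 to 6.75). In D1 female water replicate 6, Cnp was low at 25.3 (38.7 to 39.5) and Gjc3 high at 5.36 (3.11 to 3.74). That library had the fewest reads in genes of all 48 (20211543) and the largest share of reads in the summary lines (32.57%). D1 male fentanyl replicate 1 had the most reads in genes of the D1 libraries (31779013) and their smallest share of reads outside exons (11.01%). The part of these traits in the flags was not tested. Tspan2 was low in replicate 1 of 3 D2 groups, at 17.3 in male fentanyl (21.7 to 22.8), 16.0 in female fentanyl (19.4 to 21.3) and 15.1 in female water (19.0 to 21.1), while replicate 1 of D2 male water was at 21.4.

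The other sets had 1 library each. Opalin was high in D2 female fentanyl replicate 6 at 8.23 (4.87 to 5.89), Mal in D1 female fentanyl replicate 2 at 11.6 (9.13 to 9.99), and Olig1 low in D2 female fentanyl replicate 2 at 11.3 (15.3 to 16.99). Pdgfra was high in D2 female water replicate 2 at 4.70 (2.97 to 3.44), Cspg4 in D1 male fentanyl replicate 3 at 1.60 (0.602 to 0.976), and Enpp6 in D1 male water replicate 4 at 1.42 (0.584 to 0.892). Lhfpl3 was low in D2 male fentanyl replicate 2 at 19.9 (22.2 to 23.3). Leaving out each library in turn brought none of the 31 genes past the threshold for fentanyl in D1 or D2 libraries.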

How the results depend on the processing

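Under RLE scaling, no filter, DESeq2, limma voom, a replicate block and a fit of 24 libraries, the counts of mature, transcription factor and precursor genes lower or higher in D1 than in D2 stayed within 1.5 times of those reported, and under these, the covariate, the fit of all 48 libraries and the leaving out of single libraries the counts called for fentanyl stayed at 0. Whether a replicate number links libraries across cell types or sexes was not tested. With the replicate block 18 mature genes were again lower in D1 water libraries and no call of a lineage gene changed. Of 608 single-gene values outside the leave-one-out fits, 607 kept their direction and side of the threshold, the exception being Ugt8a between D1 and D2 in fentanyl abstinence, which passed with limma voom (-0.40, adjusted p = 0.0363). Group-centred values ended the call of Cspg4 with Vtn in D1 (0.511) and D2 (0.610) and of Mobp with Cnp in D1 (0.466), and turned the sign of Mobp with Pdgfra in D1 (-0.0757) and D2 (0.0603). A prior count of 0.5 turned that of Pdgfra with C1ql1 in D1 (-0.000386). The cause of these was not tested. Genes under about 1 CPM, such as Neu4 in D1 libraries, rest on few reads, and intervals cover the spread between pools of mice, not single mice.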

Other observations

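Among 15 further precursor genes that are not members, 4 were higher in D1 than in D2 water libraries, a share near the 26.8% of all genes called higher. Tnr, the matrix glycoprotein tenascin-R, ran from 34.9 to 66.5 CPM in D1 (median 37.7) and from 21.2 to 28.5 CPM in D2 (median 25.1), with no overlap, and differed by 0.76 on the log2 scale (SE 0.0889, edgeR adjusted p = 5e-10). Xylt1, which starts the sugar chains of proteoglycans, ran from 22.9 to 46.0 CPM (median 29.7) and from 10.6 to 18.9 CPM (median 14.0), also with no overlap, and differed by 1.17 (SE 0.12, edgeR adjusted p = 1.22e-11). Sox6, a SOX factor gene, differed by 0.80 and Ptprz1, a receptor phosphatase gene, by 0.33, both passing with overlapping ranges. In fentanyl abstinence the differences of these genes were 0.68, 1.26, 1.006 and 0.52.  Of the same list, Matn4 (-1.57), Itpr2 (-1.52), Bmp4 (-1.34) and Kif19a (-1.28) were lower in D1 water libraries, beside Pdgfra and Gpr17 among the members.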
